A study of Mus musculus with 2 samples.

Results

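Genes of the oligodendrocyte lineage and of myelin were examined in RNA bound to tagged ribosomes from the mouse ventral striatum. The list holds 39 genes, chosen by name and all found among the 32531 gene symbols of the files. The study profiled neurons of this region in adult mice of the line Stard5-TRAP JX5852, in which ribosomal protein L10a fused to the fluorescent protein EGFP is made under regulatory sequence of Stard5. Tagged polysomes were pulled down with antibodies against EGFP (translating ribosome affinity purification, TRAP), and the RNA bound to them was sequenced. The mice were untreated controls, and 2 libraries of the pulled-down RNA, replicate 2 and replicate 1, form the only group. Whether separate mice or pools gave the replicates is not in the labels, so their spread may be technical.

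Oligodendrocytes wrap axons in myelin, a compacted membrane rich in galactolipids and in a small set of proteins. They form from precursor cells that carry the growth factor receptor encoded by Pdgfra and the proteoglycan encoded by Cspg4 and that pass through a short premyelinating stage. The transcription factors Olig2 and Sox10 act through the whole lineage, and Myrf switches on the myelin genes as cells mature. In the striatum, myelinated fibre bundles cross the grey matter. Input RNA was not analysed here, so the levels below do not show enrichment or depletion by the pulldown, nor whether the RNA sat on tagged ribosomes. In bulk RNA, fewer cells of a type and less RNA per cell cannot be told apart.

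Reads in genes numbered 29574781 in replicate 2 and 25830282 in replicate 1. A gene counted as detected at 1 CPM (reads per 1000000 reads in genes) or more in both libraries, and 38.0% of all symbols met this. Levels of different genes are compared as CPM per kilobase of exon, with a median over detected genes of 5.13 in replicate 2 and 5.39 in replicate 1. The other cell types in the pulldown set the scale. Spiny projection neuron genes had a median of 51.5 CPM per kilobase in replicate 2 and 79.0 in replicate 1, and astrocyte genes 8.6 and 3.86.

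The 250 bases before the annotated start of 6 myelin genes are shown first. They comprise Mobp, picked after its sequence had been seen, and Cnp, Aspa, Opalin, Cldn11 and Ugt8a, the 5 core myelin genes that differed most between the libraries. Capitals mark matches on either strand to 3 sets of letters. ACAAAG and ACAAT are typical binding sequences of Sox10 and its relatives. CTGGNAC, where N is any base, is a loose form of the sequence of the factor Myrf, so not every match need fit that factor. Sequences are from RefSeq (GRCm38.p6) and read 5′ to 3′ towards the start site.
Mobp (chr9:120149492-120149741, plus strand): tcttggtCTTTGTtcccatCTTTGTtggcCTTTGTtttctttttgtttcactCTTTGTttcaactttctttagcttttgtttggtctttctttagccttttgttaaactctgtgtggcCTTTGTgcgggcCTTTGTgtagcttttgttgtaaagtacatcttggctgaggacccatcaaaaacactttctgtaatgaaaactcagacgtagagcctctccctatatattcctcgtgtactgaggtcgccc
Cnp (chr11:100574689-100574938, plus strand): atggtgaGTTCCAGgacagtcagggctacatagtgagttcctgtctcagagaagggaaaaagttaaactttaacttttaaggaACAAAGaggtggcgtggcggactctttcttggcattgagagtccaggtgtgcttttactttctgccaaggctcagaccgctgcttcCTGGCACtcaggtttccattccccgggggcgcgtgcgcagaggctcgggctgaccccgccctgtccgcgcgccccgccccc
Aspa (chr11:73324638-73324887, minus strand): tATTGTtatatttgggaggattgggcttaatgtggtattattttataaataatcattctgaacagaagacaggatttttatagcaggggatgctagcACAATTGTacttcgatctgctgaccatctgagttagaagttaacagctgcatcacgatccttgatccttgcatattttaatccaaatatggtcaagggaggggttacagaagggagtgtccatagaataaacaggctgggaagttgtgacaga
Opalin (chr19:41077114-41077363, minus strand): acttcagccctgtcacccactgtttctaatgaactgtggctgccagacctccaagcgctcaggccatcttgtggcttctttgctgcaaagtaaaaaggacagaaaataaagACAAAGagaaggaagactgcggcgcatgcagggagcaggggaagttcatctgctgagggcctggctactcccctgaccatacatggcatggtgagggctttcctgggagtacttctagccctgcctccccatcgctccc
Cldn11 (chr3:31149670-31149919, plus strand): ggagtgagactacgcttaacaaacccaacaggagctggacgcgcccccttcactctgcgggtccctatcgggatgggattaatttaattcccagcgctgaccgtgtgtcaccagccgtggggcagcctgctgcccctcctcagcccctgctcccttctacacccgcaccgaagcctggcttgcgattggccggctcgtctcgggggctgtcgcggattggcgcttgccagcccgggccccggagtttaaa
Ugt8a (chr3:125938653-125938902, minus strand): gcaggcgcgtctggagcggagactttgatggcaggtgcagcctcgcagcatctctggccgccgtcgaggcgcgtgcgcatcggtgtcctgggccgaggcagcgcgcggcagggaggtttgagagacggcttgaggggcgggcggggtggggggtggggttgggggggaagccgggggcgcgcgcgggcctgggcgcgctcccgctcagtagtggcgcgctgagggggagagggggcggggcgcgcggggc

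The Mobp window held ACAAAG 6 times, the highest number in any of the 32851 RefSeq promoter windows searched, of which 16.5% held it at least once and 0.0213% held it 4 times or more. The motifs were chosen after the Mobp sequence had been seen. Cnp held ACAAAG once and CTGGNAC 2 times, Aspa held ACAAT 3 times (an overlapping pair on opposite strands counts as 2), and Opalin held ACAAAG once. The windows of Cldn11 and Ugt8a held none of these letters. Of 16 windows of 13 core myelin genes, 6 held ACAAAG, 2 held ACAAT and 4 held CTGGNAC, which is 37.5%, 12.5% and 25%. The shares over all windows were 16.5%, 27.7% and 16.1%. A match in letters is not a binding site, and 2 windows of Mag overlap each other.

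Core myelin genes, 15 genes of myelin proteins and myelin lipid synthesis, were all detected in both libraries and lay mostly above the middle of the detected genes. Their median was 10.1 CPM per kilobase in replicate 2 and 9.32 in replicate 1, and 11 of the 15 exceeded the median of detected genes. Cnp, which encodes a phosphodiesterase that keeps cytoplasmic channels in myelin open (chromosome 11, 100574904 to 100591729, plus strand, mm10), led with 67.8 CPM per kilobase in replicate 2 and 32.0 in replicate 1. Mbp, which encodes the basic protein that zips the membrane layers together (chromosome 18, 82475146 to 82585637, plus strand), had 44.1 and 33.2 CPM per kilobase. The order of Cnp and Mbp therefore changed between the libraries, and at 49.9 ± 25.3 against 38.6 ± 7.74 CPM per kilobase (SD, n = 2) they did not differ beyond their spread. With the longest transcript as length the averaged order was the reverse, at 62.5 for Cnp and 68.2 for Mbp.

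The next 4 genes encode membrane, cytoskeletal and basic proteins of the myelinating cell. Mal, a raft-associated proteolipid, had 44.3 CPM per kilobase in replicate 2 and 26.7 in replicate 1. Ermn, a cytoskeletal protein of late oligodendrocytes, had 30.7 and 24.3. The tetraspanin gene Tspan2 had 32.5 and 17.6, and Mobp, a small basic protein of compact myelin, had 26.5 and 20.6. These 4 genes stood between 23.5 ± 4.22 and 35.5 ± 12.4 CPM per kilobase on average (SD, n = 2), a range no wider than the gap between the libraries for Mal or Tspan2.

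A lower tier held genes of the myelin surface and of lipid synthesis. The connexin gene Gjc3 had 14.6 CPM per kilobase in replicate 2 and 11.2 in replicate 1, and Fa2h, which hydroxylates the fatty acids of myelin galactolipids, had 10.1 and 9.32. Mog, an immunoglobulin-like protein of the outermost myelin layer, had 10.1 and 6.86. Ugt8a, the galactosyltransferase that makes galactosylceramide, had 9.82 and 4.33, and Cldn11, the tight-junction protein of the myelin sheath, had 9.82 and 2.11. Ugt8a and Cldn11 were thus close to Mog and Fa2h in replicate 2 and fell short of both in replicate 1. Lowest were Mag, an adhesion protein of the innermost layer, with 5.24 and 3.18 CPM per kilobase, Pllp, a plasmolipin, with 4.03 and 2.51, Aspa, which releases acetate from N-acetylaspartate, with 3.59 and 1.05, and Opalin, a late sialylated membrane protein, with 2.18 and 0.815. In the annotation, 54.2% of the exon bases of Pllp overlap the opposite-strand gene Gm45767, and without a stated strand setting reads of the pair cannot be told apart.

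**Figure D1:**
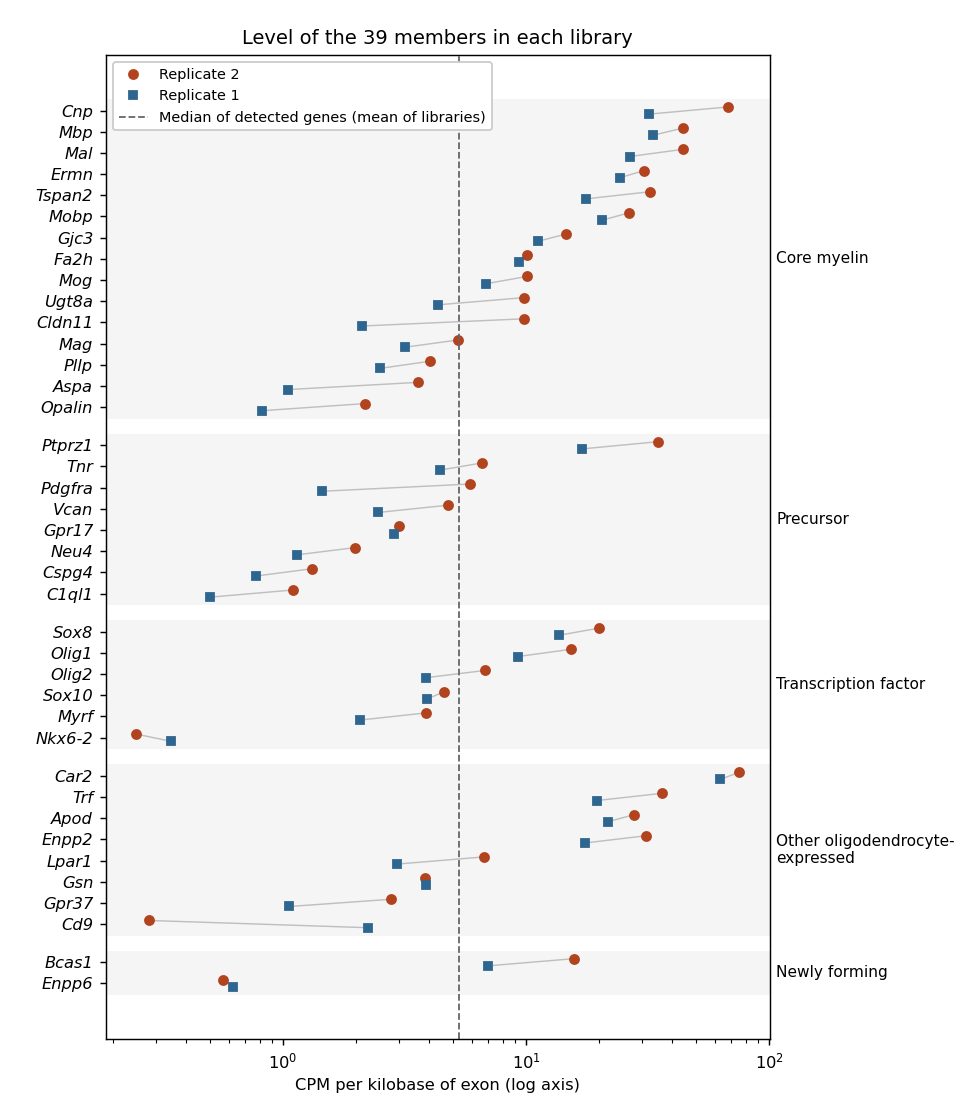
Level of each of the 39 members as CPM per kilobase of exon (log axis) in replicate 2 (circles) and replicate 1 (squares), by role. The dashed line is the median of detected genes, at 5.31. Car2 leads in both libraries, 35 circles lie right of their squares, and those of Cd9, Nkx6-2, Enpp6 and Gsn lie left.

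As a median, precursor genes were lower than core myelin genes on a per-kilobase scale, and only Ptprz1 exceeded the core myelin median. The sets overlapped: Tnr exceeded Mag, at 6.61 against 5.24 CPM per kilobase in replicate 2 and 4.43 against 3.18 in replicate 1. The median of the 8 precursor genes was 3.89 CPM per kilobase in replicate 2 and 1.95 in replicate 1. Core myelin minus precursor was 1.40 log2 units in replicate 2 and 2.24 in replicate 1 (1.55 at the averaged levels, with a SD over the 2 libraries of 0.60), with core myelin higher in both. In each library 13 of 15 core myelin genes exceeded the precursor median, and 1 of 8 precursor genes, Ptprz1, exceeded the core myelin median. These are levels of different genes within 1 group, so no test was made. As plain CPM, not divided by exon length, the difference was 0.44, and without Vcan, Tnr and Ptprz1, which other brain cells also make, it was 2.56.

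Ptprz1 encodes a receptor phosphatase that carries chondroitin sulphate and is made by precursors, astrocytes and some neurons. It had 14733 reads in replicate 2 and 6273 in replicate 1, or 35 and 17 CPM per kilobase over 14245 exon bases. The matrix proteins Tnr (tenascin-R) and Vcan (versican) had 6.61 and 4.76 CPM per kilobase in replicate 2, against 4.43 and 2.46 in replicate 1. Tnr and Vcan thus kept their order in both libraries. Gpr17, a receptor of the premyelinating stage, was nearly level at 3.01 and 2.85 CPM per kilobase.

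Pdgfra, a receptor that marks precursor cells, lies on chromosome 5 (75152292 to 75198215, plus strand). It had 1738 reads in replicate 2 and 375 in replicate 1, or 5.86 and 1.45 CPM per kilobase. Per kilobase this was 13.3% of Mbp in replicate 2 and 4.37% in replicate 1, while Gpr17 was 6.83% and 8.6% of Mbp. Cspg4, which encodes the NG2 proteoglycan and marks pericytes too, stayed lower, at 1.31 and 0.776 CPM per kilobase. Pdgfra over Cspg4 was 4.49-fold in replicate 2 and 1.87-fold in replicate 1, so the leading pair of precursor markers did not keep a fixed ratio. The sialidase gene Neu4 had 1.98 and 1.14 CPM per kilobase. C1ql1, a secreted C1q-like protein, had 48 and 19 reads and missed the detection limit in replicate 1 at 0.736 CPM (95% Poisson interval 0.443 to 1.15).

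**Figure D2:**
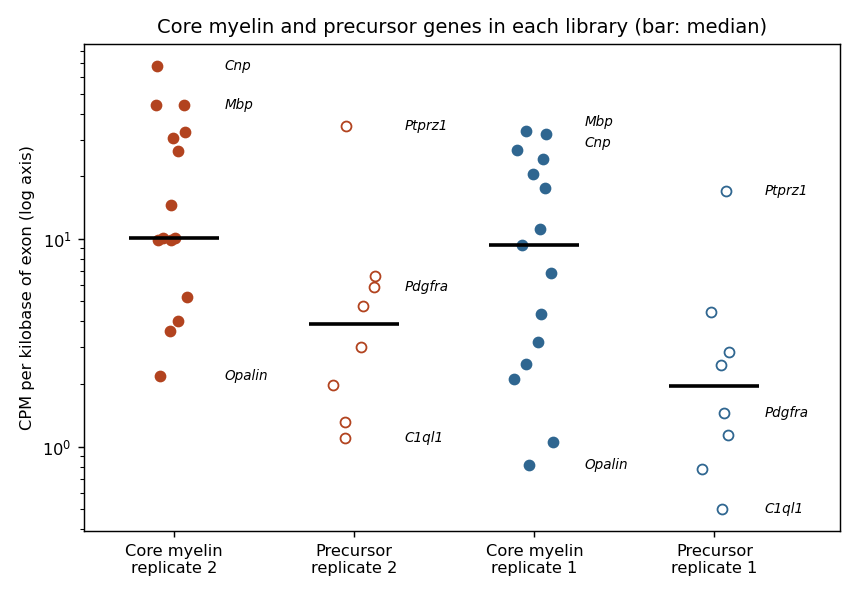
CPM per kilobase of exon (log axis) of the 15 core myelin genes (filled) and the 8 precursor genes (open) in replicate 2 and replicate 1. Points are genes and bars medians, at 10.1 and 3.89 in replicate 2 and at 9.32 and 1.95 in replicate 1. Ptprz1 stands apart from the other precursor genes in both libraries.

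Of the 6 transcription factor genes, 5 were detected. Sox8, a relative of Sox10, was the highest at 20 CPM per kilobase in replicate 2 and 13.6 in replicate 1, above Sox10 at 4.61 and 3.92, a ratio of 4.34-fold and 3.47-fold. Sox8 is also made outside this lineage, and 10.6% of its exon bases overlap 2810468N07Rik. The basic helix-loop-helix factors kept a steady ratio: Olig1 had 15.3 and 9.28 CPM per kilobase and Olig2 6.75 and 3.87, so Olig1 over Olig2 was 2.27-fold and 2.40-fold (1.22 ± 0.05 on the log2 scale, SD, n = 2). Myrf, a membrane-bound factor that cleaves itself to reach the nucleus, had 3.89 and 2.07. Nkx6-2, a homeodomain factor of myelinating cells, was not detected, with 14 and 17 reads, or 0.473 CPM (95% Poisson interval 0.259 to 0.794) and 0.658 CPM (0.383 to 1.05).

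Genes that oligodendrocytes share with other cells included the highest member. Car2, the cytosolic carbonic anhydrase of oligodendrocytes and some astrocytes and neurons, had 75.5 CPM per kilobase in replicate 2 and 63.1 in replicate 1, the top rank in both. Trf, the iron carrier transferrin that oligodendrocytes make for the brain, had 36.1 and 19.5, although 63.5% of its exon bases overlap the annotated gene Gm20425. Enpp2 (autotaxin, which makes lysophosphatidic acid) had 31.2 and 17.5. Choroid plexus also makes Enpp2. Of 6 choroid plexus and ependymal genes 1 was detected, Kl, with 605 reads in replicate 2 and 327 in replicate 1 (log2 ratio 0.72). Foxj1 had 23 and 20 reads, and Ttr, Folr1, Ccdc153 and Tmem212 had 0 in both libraries. Their part in the level of Enpp2 was not tested.

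Apod, a lipid-binding apolipoprotein of oligodendrocytes and perivascular fibroblasts, had 27.9 and 21.7 CPM per kilobase. The 6 fibroblast genes summed to 8.15 CPM in replicate 2 and 6.77 in replicate 1. The 2 detected, Igf2 with 103 and 115 reads and Col1a2 with 51 and 48, had log2 ratios of -0.33 and -0.08. Below the limit, Dcn had 71 and 0 reads, Lum 15 and 2, Col1a1 0 and 10, and Col3a1 1 and 0. Their part in the level of Apod was not tested. Lpar1, a receptor for the product of Enpp2, had 6.69 and 2.93 CPM per kilobase, Gsn, an actin-severing protein, 3.82 and 3.86, and Gpr37, an orphan receptor of maturing oligodendrocytes, 2.77 and 1.06. Gsn was level between the libraries, whereas Lpar1 and Gpr37 were not.

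Cd9, a tetraspanin of late oligodendrocytes and many other cells (chromosome 6, 125460266 to 125494791, minus strand), stood apart. It had 17 reads in replicate 2 and 118 in replicate 1, or 0.575 CPM (95% Poisson interval 0.335 to 0.920) and 4.57 CPM (3.78 to 5.47). Its relative Tspan2 went the other way, so Tspan2 over Cd9 was 116-fold per kilobase in replicate 2 and 7.86-fold in replicate 1. Among other related pairs, Mal over Pllp was 11-fold and 10.6-fold, and Enpp2 over Enpp6 55.4-fold and 28.1-fold.

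Of the 2 genes of newly forming oligodendrocytes, Bcas1 was well above Enpp6. Bcas1, which marks cells starting to myelinate, had 15.8 CPM per kilobase in replicate 2 and 7.00 in replicate 1, though 12.6% of its exon bases overlap antisense transcripts. Enpp6, a choline phosphodiesterase of the newest oligodendrocytes, had 107 and 103 reads, or 0.564 and 0.622 CPM per kilobase, the lowest level among the detected members.

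The members as a whole took a larger share of the reads in replicate 2. All 39 genes together held 89101 reads, or 0.301% of reads in genes, in replicate 2 (Clopper-Pearson 95% interval 0.299 to 0.303) and 47688 reads, or 0.185%, in replicate 1 (0.183 to 0.186). The mean was 0.243% ± 0.0825 (SD, n = 2). Core myelin genes made up 47.2% of these reads in replicate 2 and 50% in replicate 1, and precursor genes 25% and 20.6%. The order of the 39 genes by CPM per kilobase was much the same (Spearman's rho 0.94 across genes, which share libraries and exon lengths).

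The libraries were then compared gene by gene, with a 2-sided exact binomial test on reads with library sizes scaled by TMM, which trims the most extreme ratios. A gene was called when its Benjamini-Hochberg adjusted p over all 12374 detected genes was below 0.05 and its ratio at least 2-fold. This test sets 2 libraries of the same group against each other and takes in counting error only. Of all detected genes 9.57% were called higher in replicate 2 and 7.78% higher in replicate 1. Of the 36 members tested, 10 were called higher in replicate 2 (27.8%) and 0 higher in replicate 1. The median log2 ratio, replicate 2 over replicate 1, was 0.77 over the members and 0.00 over all detected genes, and 35 of the 36 ratios were above 0.

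Among core myelin genes, 5 of 15 (33.3%) were called higher in replicate 2, against 9.57% of all detected genes. None was called higher in replicate 1, against 7.78%, and all 15 ratios were above 0, with a median of 0.75. Cldn11 led with 543 reads in replicate 2 and 102 in replicate 1, a log2 ratio of 2.24 (95% interval 1.94 to 2.56; binomial test, adjusted p = 9.54e-62). Aspa had 633 and 161 reads and a ratio of 1.81 (1.55 to 2.06). Opalin had 190 and 62 reads and a ratio of 1.45 (1.03 to 1.88). Ugt8a, with 1318 and 507 reads, was at 1.21, and Cnp, with 7294 and 3004 reads, at 1.11.

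The 10 core myelin genes not called spanned 0.14 to 0.91. Mbp had 11052 reads in replicate 2 and 7257 in replicate 1, a log2 ratio of 0.44 (0.39 to 0.48), Mobp 5373 and 3637 reads at 0.39 (0.33 to 0.45), and Ermn 3299 and 2285 reads at 0.36 (0.28 to 0.44). The counting intervals of Cnp, Aspa and Cldn11 lay wholly above those of Mbp, Mobp and Ermn. Core myelin genes thus did not share a single ratio between the libraries within counting error. Fa2h had the lowest ratio, 0.14, with 898 and 724 reads. Tspan2, with 4571 and 2158 reads, was at 0.91 and Mal, with 3639 and 1916 reads, at 0.76. Mag, Pllp, Mog and Gjc3 had ratios between 0.41 and 0.75.

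Precursor genes had a median ratio of 0.81 over the 7 tested. Of the 7, 2 (28.6%) were called higher in replicate 2 and 0 in replicate 1, against 9.57% and 7.78% of all detected genes. Pdgfra was at 2.04 (95% interval 1.88 to 2.21; binomial test, adjusted p = 3.77e-174) and Ptprz1 at 1.06 (1.02 to 1.11). Vcan, with 2037 and 918 reads, was just short of 2-fold at 0.98, and Neu4, Cspg4 and Tnr were at 0.81, 0.78 and 0.60. Gpr17, with 463 and 383 reads, was at 0.10 (-0.09 to 0.30). The interval of Pdgfra lay above those of all 6 other tested precursor genes. Genes of pericytes and vessel walls, which share Cspg4, differed as well: Pdgfrb had 300 reads in replicate 2 and 25 in replicate 1, Abcc9 312 and 59 (log2 ratio 2.23, called), Rgs5 393 and 177, Vtn 344 and 191, and Kcnj8 28 and 0. Of the endothelial genes, Cldn5 had 35 and 4 reads, Pecam1 56 and 112 (-1.17, called higher in replicate 1), Ly6c1 37 and 65, Flt1 264 and 276, and Slco1a4 197 and 211. The 10 genes together summed to 66.5 CPM in replicate 2 and 43.4 in replicate 1. The part of these genes' cells, or of the fibroblasts whose genes are given with Apod, in the ratios of Pdgfra and Cspg4 was not tested. The medians of core myelin and precursor genes differed by -0.07, and by 0.33 once the trend of the ratio on exon length was removed. The other alternatives gave -0.15 to -0.05. The sign thus rested on that removal, which was added after the data were seen, and the difference was not tested.

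**Figure D3:**
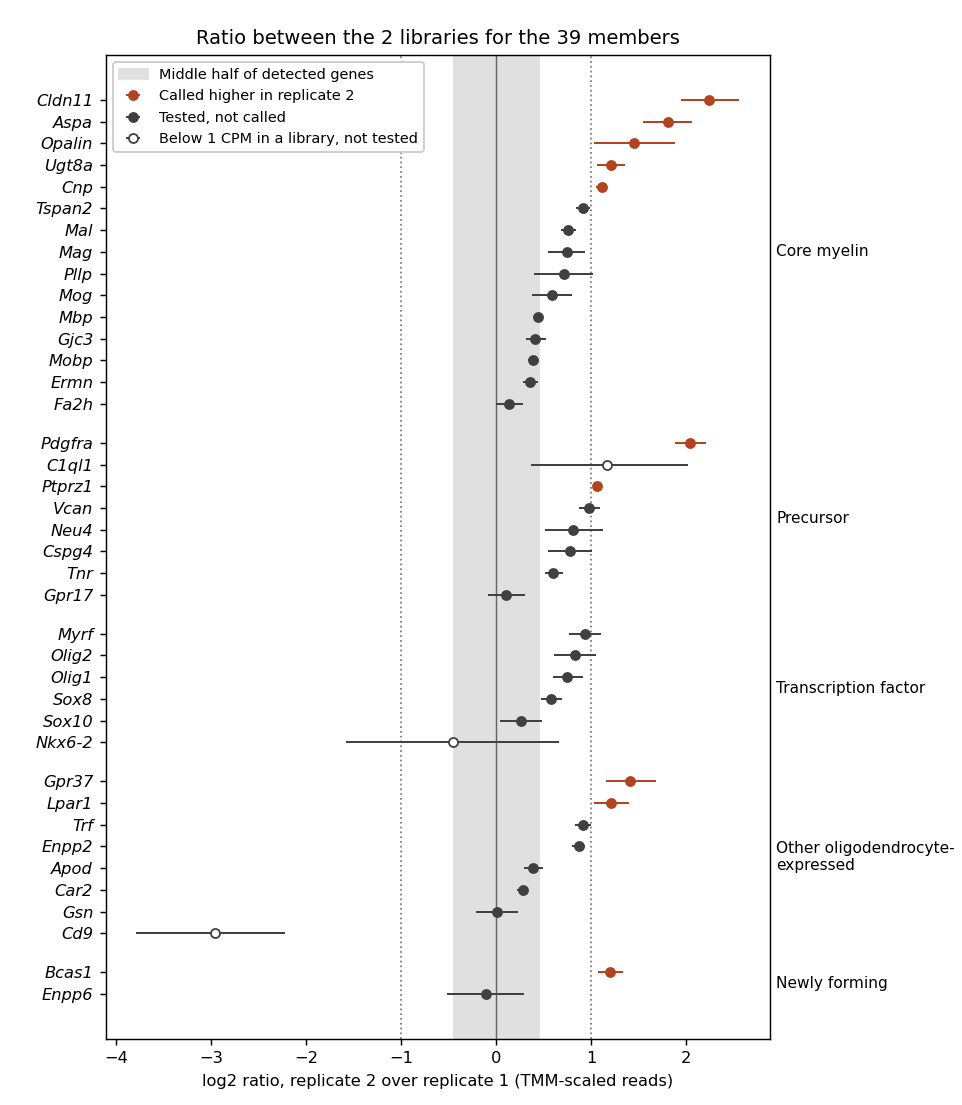
log2 ratio of replicate 2 over replicate 1 for the 39 members, by role, with 95% intervals of counting error. Filled red points were called, open points were not tested, dotted lines mark 2-fold and the grey band runs between the quartiles of detected genes (-0.44 to 0.45). The 10 called members lie right of 1, from Cnp, Ptprz1 and Ugt8a to Cldn11, and Cd9 lies far left.

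Of the other members, Gpr37 at 1.41, Lpar1 at 1.21 and Bcas1 at 1.20 were called higher in replicate 2. None of the 5 transcription factor genes tested was called, with ratios of 0.94 for Myrf, 0.83 for Olig2, 0.75 for Olig1, 0.58 for Sox8 and 0.26 for Sox10, all above 0. Trf and Enpp2 were at 0.91 and 0.87, Apod and Car2 at 0.39 and 0.28, Gsn at 0.01 and Enpp6 at -0.11. The sign for Gsn changed with the scaling. Of the 3 members below the detection limit, Cd9 had a log2 ratio of -2.96 (-3.79 to -2.22), C1ql1 1.17 (0.37 to 2.02) and Nkx6-2 -0.45 (-1.58 to 0.66). With a filter of 1 read in both libraries, Cd9 was called higher in replicate 1 (binomial test, adjusted p = 8.19e-22), against 10.3% of all genes, and C1ql1 higher in replicate 2, against 16.1%.

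Astrocyte genes also differed between the libraries. Of 12 astrocyte genes, 9 were called higher in replicate 2 and 0 in replicate 1, with a median of 1.67, and their summed level was 3854 CPM in replicate 2 and 1284 CPM in replicate 1. Slc1a2, the main glutamate transporter, led with 190.1 and 56.4 CPM per kilobase, and Aldh1l1 was lowest with 1.80 and 0.471. No astrocyte gene of the list was at 0. Spiny neuron genes had a median of -0.37, with a sum of 10811 and 14274 CPM. Microglial genes had a median of -0.44, with a sum of 162 and 217 CPM. Of these lists, 1 of 15 and 1 of 10 genes were called higher in replicate 1, against 7.78% of all detected genes. In replicate 2 the number called higher was 0 for both, against 9.57%. The 8 pan-neuronal genes, made by neurons in general, had a median of -0.16, with 3 ratios above 0, 5 below and none called. Reads assigned to no annotated feature made up 31% of counted reads in replicate 2 and 22.8% in replicate 1. What part these differences have in the ratios of Ptprz1, Car2 or the myelin genes was not tested.

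**Figure D4:**
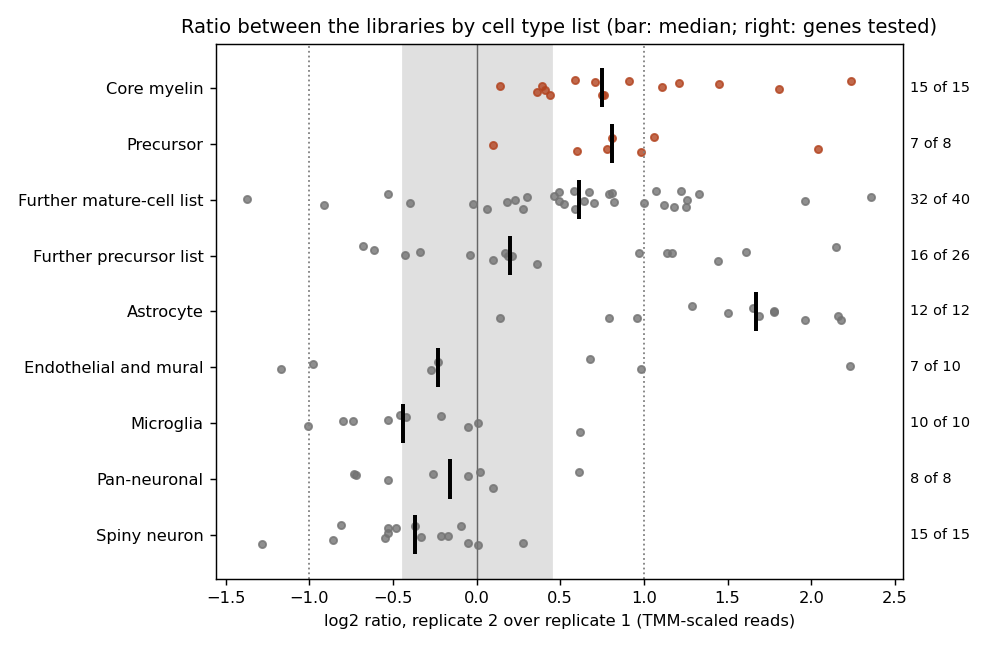
log2 ratio of replicate 2 over replicate 1 for genes of each cell type list that were detected in both libraries, with medians as bars and the number tested at the right. Core myelin and precursor genes centre near 0.75 and 0.81, and astrocyte genes near 1.67. Spiny neuron, pan-neuronal, microglial, and endothelial and mural genes centre below 0, with some genes of each above 0.

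Further genes of the lineage, listed by cell stage and not as members, were counted in the same way. Of 40 further genes of mature oligodendrocytes 32 were detected, with a median ratio of 0.61. Of these 10 (31.2%) were called higher in replicate 2 and 1 in replicate 1, against 9.57% and 7.78% of all detected genes. Called higher in replicate 2 at a mean of 5 CPM or more were Tmem88b (1.12), a membrane protein of myelinating cells, the fatty acid elongase gene Elovl7 (1.25), Adssl1 (1.18), Evi2a (1.07), Hhip (1.22), and the transcriptional regulators Zfp488 (1.0) and Zfp536 (1.26). Gamt, which makes creatine, was the member of that list called higher in replicate 1, with 128 reads in replicate 2 and 294 in replicate 1. The highest levels belonged to the tubulin-binding gene Tppp at 82.3 ± 1.66, Dbndd2 at 30.9 ± 8.39, the small heat shock gene Cryab at 29.8 ± 3.66 and Plekhb1 at 28.4 ± 3.76 CPM per kilobase (SD, n = 2).

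Of 26 further genes of precursor and premyelinating cells 16 were detected, with a median ratio of 0.20. Among them, 5 (31.2%) were called higher in replicate 2 and 0 in replicate 1, against 9.57% and 7.78% of all detected genes. The 5 were the cyclin gene Ccnd1 (2.15), Nxph1 (1.61), the transcription factor gene Sox6 (1.44), Xylt1 (1.17), which starts chondroitin sulphate chains, and the focal adhesion gene Tns3 (1.14). The highest levels were those of Cdo1 at 47.0 ± 3.22, Epn2 at 22.5 ± 0.760, Lhfpl3 at 13.7 ± 3.05 and Sulf2 at 9.36 ± 1.68 CPM per kilobase (SD, n = 2), and none of these 4 was called. Neurons and astrocytes make several genes of both lists, among them Tppp, Cdo1, Nxph1 and Sox6.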

How the data were processed

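RNA pulled down with tagged ribosomes was sequenced in 2 libraries of 1 group, named by the replicate numbers in the labels. The deposited values are whole-number read counts for each gene symbol, made with STAR 2.0.0e and HTSeq on mm10, per the submitters' processing notes. For annotation, strand setting and filters, the sources used here give nothing. Reads of near-identical or overlapping genes may be split or lost. Totals and tests leave out 6 summary lines without a gene. Reads with more than 1 alignment were 13.6% of counted reads in replicate 2 and 27.9% in replicate 1, and ambiguous reads 2.08% and 1.84%.

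Counts were converted to CPM and divided by the union of annotated exons (GENCODE M21, GRCm38). All 39 members matched a single gene, as did 11465 of 12374 detected genes (92.7%). Detection at 1 CPM needs 29.6 reads in replicate 2 and 25.8 in replicate 1. Medians of log2(CPM per kilobase + 0.1) were compared between roles with no test. Between libraries, exact binomial tests used TMM sizes from edgeR 4.0.16 over detected genes (SciPy 1.17.1). The procedure was tested on simulated counts that varied by counting error alone, as the test itself assumes. That does not show how it performs on libraries that differ by more. Intervals are 95% and reflect counting error alone. The labels name no molecular identifiers that would mark PCR copies, so copies may count as separate reads and make the intervals too narrow. A floor of 3 reads is 0.101 CPM in replicate 2 and 0.116 CPM in replicate 1.

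Promoter windows from RefSeq (GRCm38.p6) were trimmed to the 250 bases before the start, and 28 members had one. Members, lists, roles and alternatives were chosen with earlier results of these data known. Every member is reported. Of further lineage genes, the 4 with the highest CPM per kilobase and those called at a mean of 5 CPM or more are named, and of astrocyte genes the highest and the lowest. Choroid plexus, fibroblast and vascular genes were named after their values were seen, each list in full. DESeq2 1.42.0 supplied alternative size factors. No condition, batch or pairing could be compared within 1 group.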

Additional observations from a re-analysis of the deposited data

How the results depend on the processing

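The level of core myelin minus precursor genes stayed above 0 under all 9 alternatives, at 0.44 log2 units as CPM with no length, 2.56 without Vcan, Tnr and Ptprz1, and 1.40 to 2.24 when either replicate was left out. Members called higher in replicate 2 numbered 9 to 14 under all alternatives but 1. Over all tested genes the share was then 7.66% to 16.1%. At 1.5-fold 24 of 36 members were called, against 19.3% of all genes. None was called higher in replicate 1 except with a filter of 1 read, where Cd9 made 1 of 39, against 10.3% of all genes. Removal of the trend on exon length was an alternative added after seeing the data, as were TMM over all symbols and leaving out overlapping genes. With that trend removed, 14 of 36 members were called higher in replicate 2, against 9.41% of all genes tested. Mal, Pllp, Olig1, Olig2 and Trf came in and Ptprz1 left at 0.73. The core myelin median then was 0.98, and the median log2 ratio of core myelin minus that of precursor genes, -0.07 as reported, changed sign to 0.33. The median ratio over all members ranged from 0.72 to 0.83. Gsn was at -0.03 with TMM over all symbols, -0.01 with total reads, -0.04 with DESeq2 size factors and -0.03 without Rn45s. The share of reads was 0.117% for core myelin genes alone, and 0.185% to 0.301% when either replicate was left out. Members detected ranged from 33 to 39. The causes of these shifts were not tested. No paired analysis was possible because there is 1 group. Ratios between the libraries have no value with a replicate left out. At this depth, counts as low as those of Nkx6-2 leave an interval of over 2 log2 units on the ratio.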
